A study of Homo sapiens with 18 samples.

Results

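The small nucleolar RNA (snoRNA) host genes GAS5, SNHG1, SNHG3, SNHG5, SNHG6, SNHG7, SNHG8, SNHG12, SNHG15 and ZFAS1 were described in DRIP-seq peak lists of HCT116 cells. These 10 non-coding genes were chosen by name, and each was taken as its annotated gene body with 3 kb on each side, among 64440 gene windows built in the same way. HCT116 is a human colorectal carcinoma cell line. Cells were left untreated (NT) or received 10 μM camptothecin (CPT) for 5 or 60 min, and no other agent or genetic change separated the groups. In DRIP-seq, genomic DNA is cut with restriction enzymes, fragments that carry DNA-RNA hybrids are pulled down with the antibody S9.6, and the recovered DNA is sequenced. In each of the 3 treatments there were 2 biological replicates, and every replicate gave a DRIP peak list and a second list from DNA digested with RNase H, the enzyme that degrades the RNA strand of a hybrid, so that 12 lists were analysed. After CPT the cells were collected and washed in drug-free buffer before lysis, so the times are those of drug exposure and not of lysis.

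snoRNA host genes carry snoRNAs in their introns. The spliced exons are usually short-lived, whereas the intronic snoRNAs are trimmed out and kept in ribonucleoproteins that guide the chemical modification of ribosomal RNA: 2′-O-methylation by box C/D snoRNAs and pseudouridylation by box H/ACA snoRNAs. GAS5, ZFAS1, SNHG1 and SNHG5 are known as hosts of box C/D snoRNAs and SNHG3, SNHG7, SNHG8 and SNHG15 as hosts of box H/ACA snoRNAs. Many such hosts are strongly transcribed in dividing cells and begin, like ribosomal protein genes, with a C followed by a run of pyrimidines (a 5′ terminal oligopyrimidine tract). CPT traps topoisomerase I, which relaxes the supercoils made by transcription, on DNA. An R loop is a DNA-RNA hybrid with a displaced DNA strand, usually formed behind RNA polymerase.

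The lists differed in length, which bears on each value below. DRIP lists held 30314 and 52967 peaks in NT (replicates 1 and 2), 33852 and 56543 after 5 min and 41668 and 72879 after 60 min of CPT. RNase H lists held 473 and 15790 peaks in NT, 3439 and 50353 after 5 min and 5392 and 67188 after 60 min. The RNase H lists of replicate 2 after CPT were therefore nearly as long as their DRIP lists, while those of replicate 1 were short. A peak list carries no read counts, so a missing peak is a position below the calling threshold of that library and not the absence of hybrids. Fold enrichment over input is comparable within 1 list, and it was used as a percentile or a rank of that list. Peaks carry no strand and no expression level, so cell identity could not be checked from marker genes here.

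Start sequences are shown because they mark which of these genes begin as the oligopyrimidine class does. The start was the annotated position with the most transcript starts within 10 bases. Each line has 30 bases of the GRCh37 sequence on the strand of the gene, with the start as base 16 and the pyrimidine run from that base in capitals.
GAS5, minus strand of chr1:173837113-173837142: caggcaccatactgtCTTTTCgaggtagga
ZFAS1, plus strand of chr20:47895164-47895193: aggaagccattcgttCTTTCgcgtctgcgg
SNHG8, plus strand of chr4:119199898-119199927: gccgaaggcctcggcCTTTCacattcggga
SNHG12, minus strand of chr1:28908371-28908400: tcgcggcttcagcgcCCTTTCTCCCCgccg
SNHG7, minus strand of chr9:139622622-139622651: gcttcccttctcgtcCTCTgcgtgcgccgg
SNHG1, minus strand of chr11:62623343-62623372: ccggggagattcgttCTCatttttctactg
SNHG15, minus strand of chr7:45026253-45026282: gacgtcgaggtgcgcggcgcagcgcgcggc
A C with a pyrimidine run of at least 4 bases opened 6 of the 10 genes (GAS5, SNHG6, SNHG7, SNHG8, SNHG12 and ZFAS1). Over all 64440 annotated genes the share was 3.38%, and over 18702 long non-coding RNA (lncRNA) genes it was 4.09%. SNHG1 had a run of 3 bases, and SNHG3, SNHG5 and SNHG15 began with another base. A match of letters describes the sequence and does not show how the RNA is translated.

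Peaks were present over 9 of the 10 genes in each of the 4 CPT DRIP lists, and over 8 and 7 of them in the NT lists. Over all gene windows the share with a peak was 24.1% and 32.5% in NT (replicates 1 and 2), 26.5% and 34% after 5 min and 30.1% and 37.6% after 60 min. GAS5, SNHG3, SNHG5, SNHG7, SNHG12, SNHG15 and ZFAS1 had a peak in all 6 DRIP lists, which is 7 of 10 genes against 13.2% of all gene windows and 8.75% of lncRNA gene windows. SNHG8 was the 1 gene with a peak in both lists of a CPT time and in neither NT list, at 5 min and at 60 min, so 1 of 10 genes was gained at each time. Over all gene windows 2.87% were gained at 5 min and 4.38% at 60 min. None of the 10 genes was lost, where the background was 1.69% at 5 min and 1.35% at 60 min. SNHG6 had peaks in NT replicate 1 and none in NT replicate 2, and SNHG1 had none in any of the 12 lists. A single gene of 10 gives no basis for a difference from these shares.

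Windows were next compared by their bases under peaks. At 5 min of CPT, 6 of the 10 windows (GAS5, SNHG3, SNHG5, SNHG6, SNHG8 and ZFAS1) had more bases under peaks in both CPT lists than in either NT list, where the background was 15.2% of gene windows with a peak in those lists. The window of SNHG7 had fewer, against a background of 15.6%. At 60 min the same 6 windows and that of SNHG12 were higher, which made 7, and none was lower. The background at 60 min was 25% higher and 8.57% lower. With 2 lists against 2, an exact permutation test cannot go below p = 0.333, and the non-overlapping windows all stood at that value, so none passed a threshold. Bases were also set per 1000000 bases under peaks of the whole list, an alternative chosen after seeing the data. On this scale 6 windows were higher and 1 lower at 5 min, and 5 were higher at 60 min. Shares of all gene windows were not counted on this scale.

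**Figure D1:**
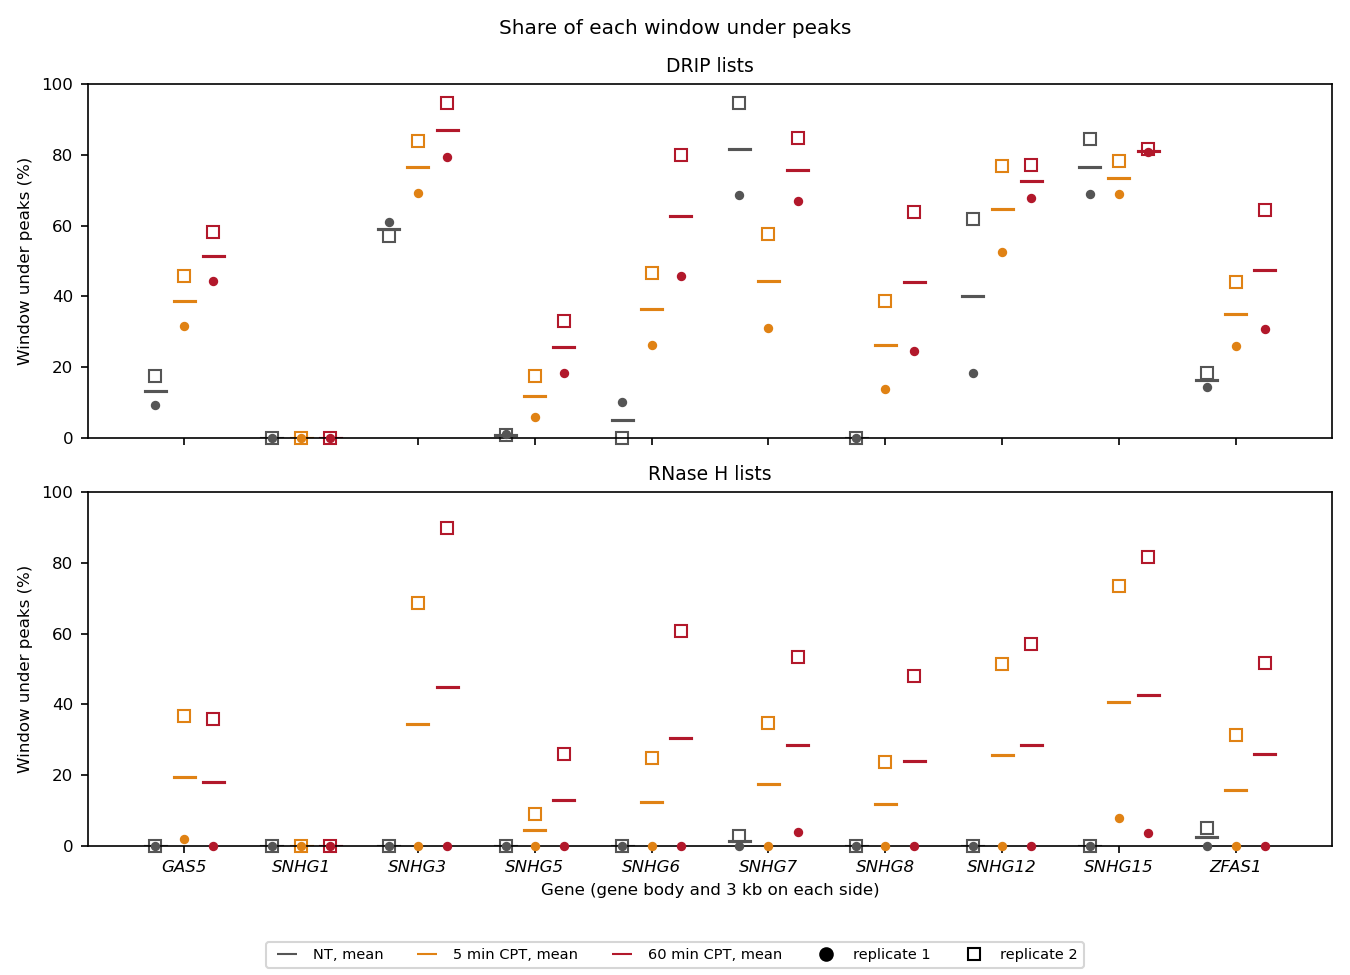
Share of each window (gene body and 3 kb on each side) under peaks, in percent, for 10 snoRNA host genes in the DRIP lists (top) and the RNase H lists (bottom). Filled circles are replicate 1, open squares replicate 2 and short lines the mean of both. GAS5 was at 9.17% and 17.5% in NT and at 44.5% and 58.2% after 60 min of CPT, SNHG15 was between 68.9% and 84.6% in all 6 DRIP lists, and SNHG1 was at 0.

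GAS5, a growth-arrest transcript that is known to bind the glucocorticoid receptor, had peaks near its start with CPT and none there without (chr1:173827697-173838020, minus strand). Bases under peaks were 1497 and 2856 bp in NT, 5158 and 7468 bp after 5 min and 7264 and 9501 bp after 60 min, and neither CPT time overlapped with NT. The mean was 2177 ± 961 bp (SD, n = 2) in NT, 6313 ± 1633 bp at 5 min and 8383 ± 1582 bp at 60 min (two-sided exact permutation p = 0.333 for each). In NT all 5 peaks lay at least 3953 bp downstream of the start, and the first 2 kb held none. In the 4 CPT lists 77.6% to 100% of the first 2 kb was under peaks, and a peak with the same edge as an NT peak, 7060 bp downstream of the start, was present in all 6 DRIP lists. After removal of the DRIP peaks over peaks of the matching RNase H list the mean difference from NT was -95.5 bp at 5 min, in place of 4136.5 bp, and 1788 bp at 60 min. In 60-min CPT replicate 1 that stretch was a single peak of 3941 bp, from 1061 bp upstream of the start to 2879 bp downstream, at the 98.8th percentile of its list. The promoter side is shared: ZBTB37, a zinc finger protein gene on the opposite strand, starts on the upstream side (-405 bp from the GAS5 start), and a peak over both cannot be assigned to either strand.

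ZFAS1, which hosts the SNORD12 family and is antisense to the start of ZNFX1, followed the same order (chr20:47894715-47916137, plus strand). Bases under peaks were 3905 and 5049 bp in NT, 7114 and 12083 bp after 5 min and 8412 and 17692 bp after 60 min. The lists of each CPT time lay above both NT lists, with a mean difference of 5122 bp at 5 min and 8575 bp at 60 min (exact p = 0.333 for each), larger in replicate 2 in both cases. Without the DRIP peaks over RNase H peaks these differences were 1129.5 and 2248.5 bp. The highest ZFAS1 peak was at the 53.4th and 86.0th percentile in NT and at the 99.5th and 99.9th at 5 min. That peak ran over 5281 bp in both 5-min lists, with the same first base, 1348 bp downstream of the start, and the same last base. ZNFX1 starts at -577 bp on the opposite strand.

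SNHG12, a host of SNORD99 (chr1:28905050-28909644, minus strand), already had peaks in NT, and its NT replicates differed widely. Bases under peaks were 1954 and 6566 bp in NT, 5563 and 8164 bp after 5 min and 7199 and 8193 bp after 60 min. The 5-min lists overlapped with NT (exact p = 0.667) and the 60-min lists did not (p = 0.333). Both mean differences were negative, -1290.5 bp at 5 min and -660.5 bp at 60 min, without the DRIP peaks over RNase H peaks. Its highest peak was at the 77.6th and 85.1st percentile in NT and between the 95.8th and the 99.4th in the 4 CPT lists, with no overlap.

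**Figure D2:**
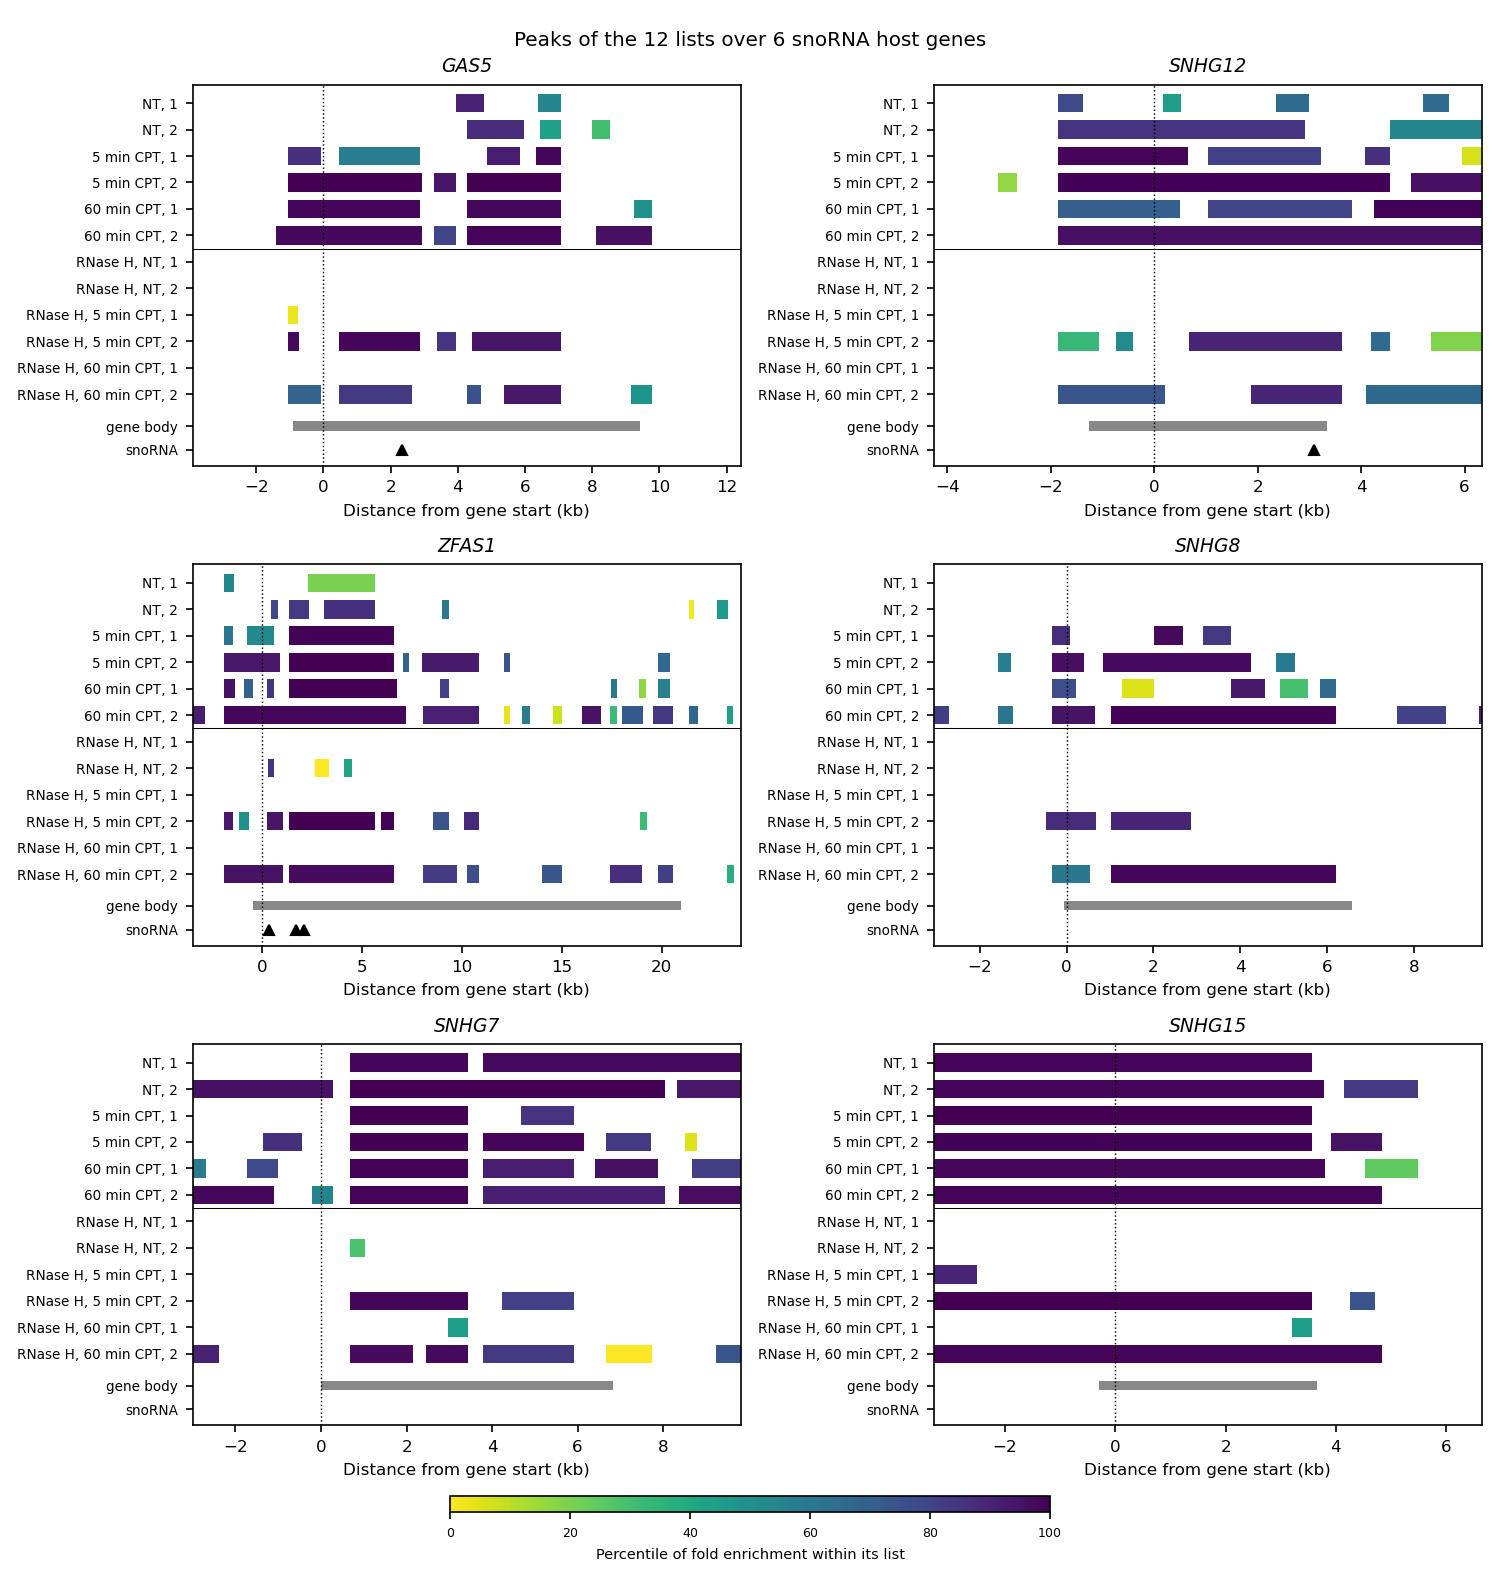
Peaks of the 12 lists over 6 snoRNA host genes, by distance from the gene start in kb, with transcription running to the right. Each bar is a peak, drawn to the edge of the window and coloured by the percentile of its fold enrichment within its list. The label gives treatment and replicate, grey bars are gene bodies and triangles annotated snoRNAs. GAS5 had no peak near its start in NT and peaks there in the CPT lists, SNHG8 had no NT peak, SNHG15 had a wide peak over its start in all 6 DRIP lists, and most RNase H peaks lay in replicate 2 after CPT.

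SNHG8, the host of an H/ACA snoRNA on chromosome 4 (chr4:119199858-119206471, plus strand), had 0 bases under peaks in both NT lists, 1737 and 4878 bp after 5 min, and 3086 and 8063 bp after 60 min. A peak from 341 bp upstream of the start covered the start in each of the 4 CPT lists. Its first base was the same in all 4, and it ran to 81 and 400 bp downstream of the start at 5 min and to 224 and 651 bp at 60 min. The highest SNHG8 peak stood between the 93.4th and 99.6th percentile in these lists. Its start also lay under a peak in both RNase H lists of replicate 2 after CPT. Those lists had 2998 bp at 5 min and 6067 bp at 60 min under peaks in the SNHG8 window. With DRIP peaks over RNase H peaks removed, the mean difference from NT was 1233.5 bp at 5 min, in place of 3307.5 bp. At 60 min it was 2448.5 bp, in place of 5574.5 bp.

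SNHG6 and SNHG5, both hosts of box C/D snoRNAs, started from little. Bases under SNHG6 peaks were 1193 and 0 bp in NT, 3118 and 5536 bp after 5 min and 5411 and 9480 bp after 60 min. The start of SNHG6 lay under a peak in the 4 CPT DRIP lists and in neither NT DRIP list. It also lay under a peak in both RNase H lists of replicate 2 after CPT, at the 98.4th and 99.4th percentile. SNHG5 (chr6:86360209-86388650, minus strand) had 338 and 290 bp in NT, 2049 and 6017 bp after 5 min and 6352 and 11349 bp after 60 min. In SNHG5 the start itself lay under no peak in any of the 12 lists, and its highest NT peaks were at the 35.4th and 55.4th percentile. Both genes were above NT at each CPT time without overlap (exact p = 0.333), with the larger value in replicate 2. When DRIP peaks over RNase H peaks were removed, the 60-min difference was 2109 bp for SNHG6 and 3026.5 bp for SNHG5.

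SNHG3, a host of SNORA73, was widely covered in all treatments (chr1:28832492-28837404, plus strand). It shares its annotated start with RCC1, the exchange factor of the GTPase Ran, so that peaks at this start belong to both annotations. Bases under peaks were 6676 and 6231 bp in NT, 7555 and 9170 bp after 5 min and 8661 and 10353 bp after 60 min. The mean difference from NT was 1909 bp at 5 min and 3054 bp at 60 min, without overlap (exact p = 0.333). With DRIP peaks over RNase H peaks removed both differences turned negative, to -2676 bp and -2123 bp. The start lay under a peak in the 4 CPT lists and in neither NT list. In the 5-min lists the peak over the start ranked 60th and 52nd in its list, at the 99.8th and 99.9th percentile. The start also lay under a peak in both RNase H lists of replicate 2 after CPT. At 5 min that RNase H peak had the same 2 ends as the DRIP peak and stood at the 99.6th percentile. At 60 min the RNase H peak over the start stood at the 98.2nd percentile.

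SNHG15 and SNHG7 carried high peaks without CPT. SNHG15 (chr7:45022618-45026560, minus strand) had 6853 and 8413 bp under peaks in NT, 6853 and 7779 bp after 5 min and 8050 and 8121 bp after 60 min, so that the treatments overlapped (exact p = 1 for each time). The mean 60-min difference was 452.5 bp, and it was -3622 bp with DRIP peaks over RNase H peaks removed. Its peak covered the start and the whole of the first 2 kb in all 6 DRIP lists, at the 98.3rd to 99.8th percentile. In 3 DRIP lists, NT replicate 1 and both 5-min lists, it had the same 2 ends and the same width of 7762 bp. SNHG7 (chr9:139615818-139622636, minus strand) was the gene with fewer bases at 5 min. It had 8806 and 12150 bp in NT, 3998 and 7398 bp after 5 min and 8586 and 10874 bp after 60 min. The mean difference was -4780 bp at 5 min, with no overlap (exact p = 0.333), and -748 bp at 60 min, with overlap (p = 0.667). Counted over the gene body alone, the 5-min difference was -1473 bp, so most of it lay in the flanks. A 2769-bp peak inside SNHG7, from 675 to 3443 bp downstream of the start, had the same ends in 5 DRIP lists and was the highest SNHG7 peak in each of those lists. This peak and the NT peaks further downstream also lay over DIPK1B, a protein-coding gene on the opposite strand. Their bases cannot be assigned to either gene.

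SNHG1, host of a cluster of box C/D snoRNAs on chromosome 11 (chr11:62619450-62623425, minus strand), had no peak in any list. The stretch without a peak in any of the 12 lists ran over 44964 bp, from chr11:62606406-62651369, and touched WDR74, RNU2-2P, SNHG1 and SLC3A2. The names of MACS2 peaks carry running numbers, and these were consecutive across the stretch in 12 of 12 lists. Blacklisted regions were filtered from the alignments before peak calling, so the numbers cannot show whether reads were removed there. Stretches without a peak that were at least as long numbered 15851. Of all gene windows 43.9% had no peak in any list, and of lncRNA gene windows 39.9%. The stretch holds 38 sites of the restriction enzymes used.

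Peaks were also ranked by fold enrichment within each list, without reference to their width. Median percentiles were higher at both CPT times than in NT and slightly lower at 60 than at 5 min, in lists that differed in length. The highest peak of a host gene stood at a median of the 84.3rd and 87.7th percentile in NT, over the 8 and 7 genes with a peak. After 5 min of CPT the medians over 9 genes were 99.0 and 99.5, and after 60 min 98.8 and 99.1. The medians over all gene windows with a peak were 70.4 and 77.5 in NT, 67.2 and 78.3 after 5 min and 76.3 and 84.8 after 60 min. In all 4 CPT lists 8 of 9 genes were at or above the 90th percentile, against 16.3% of gene windows with a peak in each of those lists. The exception was SNHG5, at 84.4 in 5-min CPT replicate 1. In both NT lists 3 of 7 were, namely SNHG3, SNHG7 and SNHG15, against 27.3%. Ranks by −log10 p gave the same 8 of 9. After removal of the DRIP peaks that overlapped a peak of their own RNase H list, no gene was at or above the 90th percentile in all 4 CPT lists. This removal took 33.0% of the whole DRIP list of replicate 2 at 5 min and 49.0% at 60 min. The share of all gene windows at the 90th percentile was not counted after it.

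**Figure D3:**
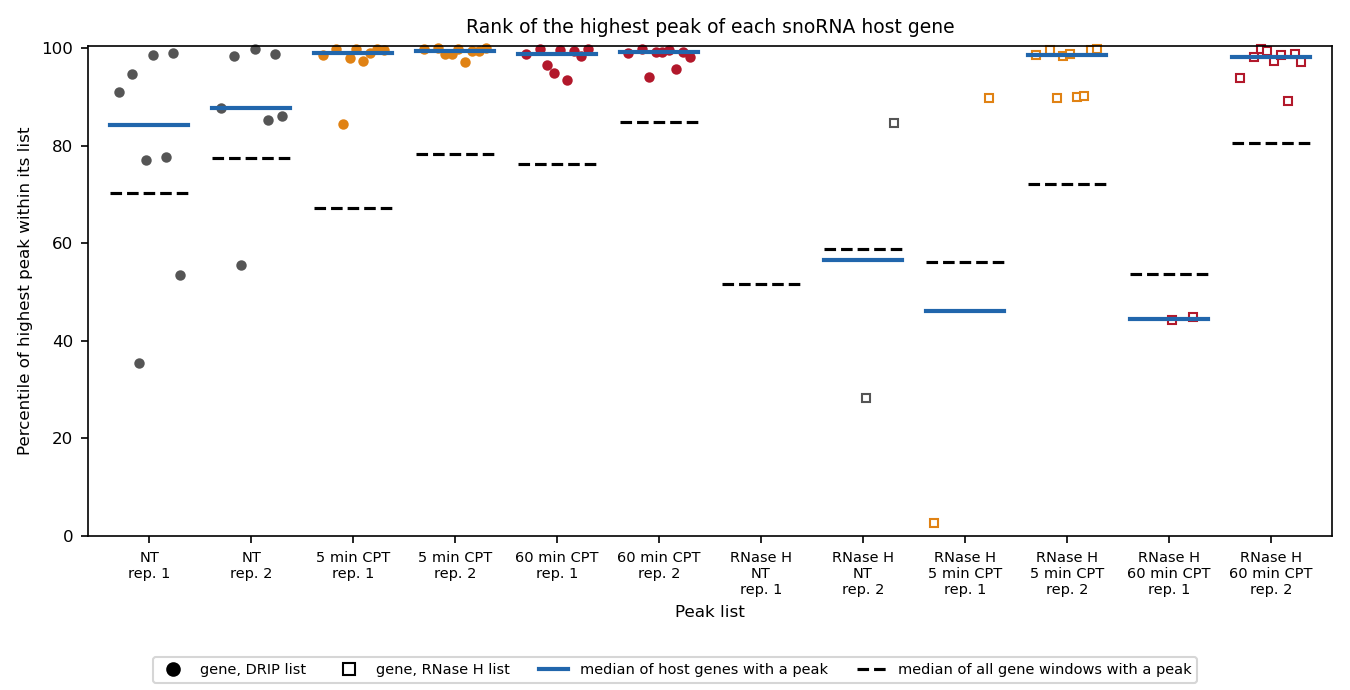
Percentile, within its own list, of the fold enrichment of the highest peak of each snoRNA host gene (filled circles DRIP, open squares RNase H). Blue lines are the median of host genes with a peak and dashed lines that of all gene windows with a peak in the list. In the 4 CPT DRIP lists the blue line is at 98.8 or above, and in the 2 RNase H lists of replicate 2 after CPT it is at 98.6 and 98.2.

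RNase H lists held few host gene peaks in some libraries and many in others. In NT 0 and 2 host genes had an RNase H peak, in replicate 1 after CPT 2 and 2, and in replicate 2 after CPT 9 and 9. The share of all gene windows with such a peak was 0.549% and 13.3% in NT, 4.26% and 6.65% in replicate 1 after 5 and 60 min, and 31.1% and 35.5% in replicate 2. Of the DRIP peaks in these windows, 0 of 17 and 4 of 23 in NT overlapped a peak of the matching RNase H list, and 2 of 24 and 2 of 40 in replicate 1 after CPT. Over the whole lists it was 0.445% and 10.8% in NT and 2.79% and 1.70% in replicate 1 after CPT. In replicate 2 after CPT it was 22 of 34 at 5 min and 30 of 40 at 60 min, while over the whole lists 33.0% and 49.0% of DRIP peaks did. The RNase H lists there also ranked the host genes high, with medians of 98.6 and 98.2. SNHG15 after 60 min of CPT had 8121 bp under peaks in replicate 2 with and without RNase H. Once DRIP peaks over RNase H peaks were removed, bases under peaks were above NT without overlap in 2 genes and below it in 2 at 5 min. At 60 min they were above in 1 gene and below in 1. Shares of all gene windows were not counted after this removal, so whether the change is particular to these genes was not tested. Whether the peaks of replicate 2 that remain after RNase H are hybrids was not tested.

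Bases under peaks were nevertheless higher in DRIP than in RNase H lists throughout the pairs of most genes. GAS5, SNHG3, SNHG5, SNHG7, SNHG12 and ZFAS1 were higher in DRIP in 6 of 6 pairs of the same treatment and replicate. The background was 17.2% of 36162 gene windows with a peak in any list. Only a window with a peak in all 6 DRIP lists can be higher in 6 of 6 pairs. Among all gene windows 8499 had such peaks and 6218 were higher in all 6 pairs, against 7 and 6 host genes. SNHG6 and SNHG15 were higher in 5 pairs and equal in 1, and SNHG8 was higher in 4 and equal in 2. SNHG7 had the largest mean difference of the 10 genes, 6615 ± 3493 bp (SD, n = 6). The differences of SNHG3 were 6676 and 6231 bp in NT, 7555 and 1674 bp after 5 min and 8661 and 545 bp after 60 min, so that the pairs of replicate 2 after CPT differed least. A two-sided exact sign-flip test gave p = 0.03125 for the 6 genes, the smallest that 6 pairs allow, and an adjusted p of 0.182 (Benjamini-Hochberg over 36162 windows). No window of the 36162 had an adjusted p under 0.05 in this test. An unpaired exact permutation test of 6 against 6 lists gave an unadjusted p under 0.05 for 4 genes (SNHG3, SNHG7, SNHG12 and SNHG15) and an adjusted p under 0.05 for 0.

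Peak ends recurred at restriction sites. DNA was cut with HindIII, EcoRI, XbaI, SspI and BsrGI before immunoprecipitation, and a recovered fragment ends where the enzymes cut. In these windows 184 of 356 edges of DRIP peaks (51.7%) lay within a site of 1 of the 5 enzymes, compared with 26.1% to 33.7% over whole DRIP lists. In RNase H lists it was 87 of 180 (48.3%), and most of these edges came from replicate 2 after CPT. There 45.9% of 74 edges at 5 min and 52.2% of 90 at 60 min lay at a site. The whole lists had 21.5% and 29.9%. In NT replicate 2 it was 25% of 8 edges, compared with 25.6% over the list, and NT replicate 1 had 0 edges in these windows. Replicate 1 after CPT had 4 edges at each time. A total of 42 edge positions were shared by 3 or more lists, and 41 of them lay at a site. Sequences at 8 of the most shared edges are given on the plus strand of GRCh37 with the enzyme site in capitals. Peaks of one gene in different lists ended at these sites.
SNHG7, XbaI, 9 lists, chr9:139621945-139621974: cacaagggccgtTCTAGAaaaatccgaccc
SNHG7, EcoRI, 8 lists, chr9:139619180-139619209: tgggggggaaaaGAATTCagggtcttaggt
GAS5, SspI, 8 lists, chr1:173830052-173830081: gatccaatttttAATATTttatttgagaca
SNHG12, HindIII, 8 lists, chr1:28910226-28910255: tttacgctttaaAAGCTTaataattatgct
SNHG15, EcoRI, 7 lists, chr7:45030453-45030482: tgcataaagcatGAATTCctggtggctcca
ZFAS1, SspI, 7 lists, chr20:47893261-47893290: actgagttctaaAATATTcataattggaaa
GAS5, EcoRI, 6 lists, chr1:173838172-173838201: ataaacacatctGAATTCatgatggcatcg
ZFAS1, HindIII, 6 lists, chr20:47896514-47896543: ggaacacatgtgAAGCTTattgttccagat
The 7762-bp SNHG15 peak was 1 HindIII to EcoRI fragment, which spans the start, and the 2769-bp SNHG7 peak ran from the EcoRI to the XbaI site above. Hybrids under such a peak cannot be placed within the fragment. In these windows the median fragment was between 311 bp (GAS5) and 1220 bp (SNHG12), and the fragment over the start was between 442 bp (SNHG5) and 7758 bp (SNHG15).

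**Figure D4:**
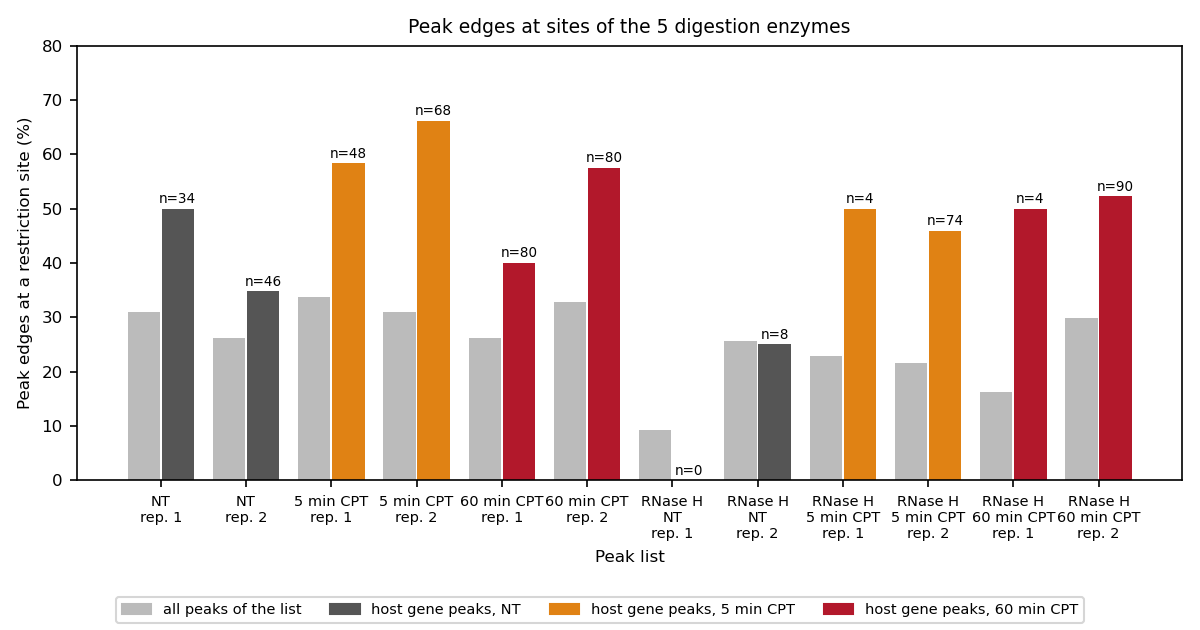
Share of peak edges, in percent, that lie at a site of 1 of the 5 digestion enzymes, for all peaks of a list (grey) and for peaks in the windows of the 10 snoRNA host genes (coloured by treatment). The number of host gene edges stands above each bar. The host gene share was above that of the whole list in all 6 DRIP lists, between 34.8% and 66.2%.

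The annotation used placed 6 snoRNA genes inside 4 of the host genes. SNORD78 in GAS5, SNORD99 in SNHG12 and SNORD12C in ZFAS1 lay fully under a peak in the 4 CPT DRIP lists and in neither NT list. SNORD12B and SNORD12, further downstream in ZFAS1, lay under a peak in NT replicate 2 and in the 4 CPT lists. SNORA73B in SNHG3 lay under a peak in NT replicate 2, both 5-min lists and 60-min replicate 2. A BsrGI site inside SNORA73B was the edge of the SNHG3 peak in NT replicate 1 and 60-min replicate 1, and thus split this snoRNA. In RNase H lists 5 of the 6 snoRNAs lay under a peak in 2 lists, both of replicate 2 after CPT.

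Other genes of the snoRNA pathway were counted for comparison. Of 108 further lncRNA genes with an annotated snoRNA, 30 (27.8%) had a peak in all 6 DRIP lists, 6 were gained at 5 min and 4 at 60 min. Their windows were longer, with a median of 63840 bp against 12226 bp. SNHG4, a host on chromosome 5 chosen here after its values were seen, had like SNHG8 0 bp in both NT lists, 4574 and 13760 bp after 5 min and 3464 and 13775 bp after 60 min. Under RNase H peaks SNHG4 had 0 and 8858 bp after 5 min and 0 and 11958 bp after 60 min (replicates 1 and 2). Of 424 protein-coding hosts, 197 (46.5%) had a peak in all 6 DRIP lists, in windows that were longer still, with a median of 76926 bp. Of the 8 core snoRNP proteins, 7 did: the box C/D proteins FBL, NOP56, NOP58 and SNU13, and the box H/ACA proteins DKC1, GAR1 and NHP2. Their genes ranked high as well. The median percentile of the highest peak, over core genes with a peak, was 90.8 and 97.6 in NT. For the host genes it was 84.3 and 87.7. Medians of the core genes were 89.7 and 96.5 after 5 min and 94.9 and 96.9 after 60 min. NOP10, the smallest box H/ACA protein, had 0 and 0 bp under peaks in NT, 0 and 985 bp after 5 min and 378 and 3395 bp after 60 min, and was counted as gained at 60 min. FBL, the methyltransferase of box C/D particles, had 7255 and 9930 bp in NT, 3391 and 9091 bp after 5 min and 9343 and 12954 bp after 60 min, so that its treatments overlapped at both times. NHP2, NOP56, SNU13 and DKC1 also overlapped with NT at both times. NOP58 and GAR1 lay above NT without overlap at both times. NOP58 had 2270 and 2418 bp in NT, 4305 and 13993 bp after 5 min and 4964 and 10483 bp after 60 min. GAR1 had 739 and 1909 bp, 2065 and 3482 bp, and 4865 and 8968 bp.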

How the data were processed

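Peak lists of 12 libraries were analysed. Per the labels and the methods, the authors used Cutadapt for trimming and BWA for alignment to hg19 and to a yeast spike-in genome, discarded duplicate reads and blacklisted regions, and ran MACS2 on every library with its own input as control. Replicates were not pooled, and each DRIP-seq replicate joined 2 parallel immunoprecipitations. The deposited fold enrichment of a peak is a ratio over input. The labels give S9.6 as the antibody of the replicate 1 inputs and none for those of replicate 2, so the control behind a fold or percentile may differ between replicates. The deposited significance of a peak is given as −log10 of the p-value and of the q-value. The lowest −log10 q was between 1.30 and 1.31. Read counts and spike-in factors were not used here, and depth is unknown from the lists. Whether their length follows depth was not tested.

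Windows came from GENCODE release 44 on GRCh37. Bases under merged peaks, presence (overlap of at least 1 base) and percentiles were computed with Python 3.11.15, NumPy 2.4.6, pandas 2.3.3 and pysam 0.24.0. Sample labels gave the groups and the replicate numbers. All 10 genes of the rule were named. The genes and comparison lists were chosen with earlier results of these data known. NT and CPT were compared with exact permutation tests, and DRIP with RNase H by sign-flip over pairs, since both came from the same digested DNA. Steps were tested on simulated peaks, which gave the right bases in 3817 of 3817 windows. Alternatives were no flank, a −log10 q of at least 3, summits in the window, lists of equal size (30314 DRIP and 473 RNase H peaks), removal of RNase H-overlapping peaks, ranks by −log10 p, pairing and each replicate left out.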

Additional observations from a re-analysis of the deposited data

Results flagged for a closer look

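Between 5 and 60 min of CPT, bases under GAS5 peaks moved in opposite directions in DRIP and RNase H lists: the difference was 2106 and 2033 bp in DRIP replicates 1 and 2 and -306 and -119 bp in RNase H. From NT to 60 min of CPT, bases under SNHG7 peaks differed by -220 and -1276 bp in DRIP replicates 1 and 2 and by 481 and 6492 bp in RNase H. Both were singled out because every DRIP list moved one way and every RNase H list the other, and neither difference was tested. Groups of 2 lists are too small for a search for outlying samples.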

How the results depend on the processing

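Removal of DRIP peaks over RNase H peaks of the matching list changed most. Gained or lost genes at 5 min went from 1 to 2 (SNHG15 counted as lost), genes in all 6 DRIP lists from 7 to 3, genes with more bases than NT at 5 min from 6 to 2 (fewer: from 1 to 2), those at 60 min from 7 to 1 (fewer: from 0 to 1), and genes at the 90th percentile in all 4 CPT lists from 8 to 0. The mean difference from NT changed sign in GAS5 (-95.5 bp), SNHG3 (-2676 bp) and SNHG12 (-1290.5 bp) at 5 min, and in SNHG3 (-2123 bp), SNHG12 (-660.5 bp) and SNHG15 (-3622 bp) at 60 min. The 60-min difference of SNHG15, 452.5 bp, was also negative with a −log10 q of at least 3 (-23.5 bp), lists of equal size (-23.5 bp) and without replicate 1 (-292 bp, against 1197 bp without replicate 2). Without replicate 1 SNHG6 joined SNHG8, so 2 genes were gained at each time, and without replicate 2 it was 1. With 1 replicate left out in turn, 7 to 8 genes had a peak in all DRIP lists, 7 to 7 genes at 5 min and 7 to 8 at 60 min had more bases than NT, while 2 without replicate 1 and 1 without replicate 2 had fewer at each time, 6 to 8 had more bases in DRIP than RNase H in every pair, and 8 to 9 were at the 90th percentile. Pairing by replicate number (replicate block) left 7 genes higher and 1 lower than NT at 5 min and 7 higher and 1 lower at 60 min, each at a paired exact p of 0.5, the smallest possible. Without the pairing of DRIP and RNase H (no replicate block), 0 genes had an adjusted p under 0.05, as with it; the unadjusted p of 4 genes was then below 0.05. Leaving out the NT replicate 1 pair kept 6 genes higher in DRIP. The counts under no flank, a −log10 q of at least 3, summits in the window and lists of equal size stayed within 1.5 times those given. The exception was 1 gene with fewer bases than NT at 60 min with summits in the window. Equal size was set within each assay, which cut RNase H lists to 473 peaks. The count of genes higher in DRIP than RNase H could hardly fall there, so that setting does not check it. The cause of these changes was not tested. Of 189 values of single genes recomputed, 162 moved by at most 1 SD, 18 by more and 9 changed sign. The SD of a difference from NT came from the same 2 replicates. Leaving 1 replicate out could therefore not move such a difference by more than 1 SD, and that part of the 162 was fixed in advance. Depth limits a missing peak to a bound on what the library could call.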
